A study of Arabidopsis thaliana with 15 samples.

Results

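Genes misexpressed without PIF4 and PIF5 were sought by setting 3 libraries of pif4-101 pif5-1 seedlings against 3 of the wild type, 6 of the 15 libraries in the series. Of 20833 genes with enough reads to be tested, 1095 were called (5.26%), 358 higher (1.72%) and 737 lower (3.54%) in the double mutant. All 6 libraries were made from whole Arabidopsis thaliana seedlings of the Col-0 ecotype, 4 days old and raised at 22 °C in continuous low white light of 3.6 µmol m−2 s−1. Each sample pooled 30 seedlings, and replicates were grown on separate plates, so p-values measure the spread between plates. The pif4-101 pif5-1 seedlings carried lesions in both PIF genes and the wild type in neither. Another white-light group, uvr8-6, mutant in the receptor gene UVR8 and carrying both PIF genes, served as a second reference. The other 6 libraries were wild type and uvr8-6 after 6 h of supplementary UV-B and entered the fit to estimate the spread between replicates. They enter no comparison here.

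PIF4 and PIF5 are basic helix-loop-helix (bHLH) transcription factors. They bind G-box and related E-box motifs in promoters, and photoactivated phytochrome B marks them for turnover. In seedlings they are known for driving hypocotyl elongation and the shade avoidance response, largely through auxin synthesis and signalling. Members of the family are known to hold back chlorophyll synthesis in the dark.

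The targeted genes were examined first, as CPM, which are read counts scaled by library size. PIF5 (AT3G59060) stood at 111.7, 77.1 and 136.1 CPM in the wild-type libraries and at 4.65, 4.92 and 5.46 CPM in the double mutant. All mutant libraries lay far below all wild-type ones. The log2 fold change was -4.43 ± 0.22 (SE; adjusted p = 1.6e-07 edgeR, the test behind all adjusted p-values below). PIF4 (AT2G43010) stood at 149.3, 62.1 and 168.3 CPM in wild type and at 82.9, 79.4 and 100.0 CPM in the mutant. Replicate 2 of the wild type lay below all 3 mutant libraries, so the groups overlapped, and the difference was not called (-0.53 ± 0.39, adjusted p = 0.49). These counts cannot tell whether pif4-101 is present, since a lesion need not remove the transcript.

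Replicate 2 of the wild type stood apart from replicates 1 and 3 in several genes the comparison turns on. FRO5 (AT5G23990), a ferric reductase gene, was at 0.209, 58.4 and 0.489 CPM in wild type and at 0.621, 1.201 and 0.881 CPM in the mutant, and replicate 2 of uvr8-6 was likewise high, at 78.7 CPM. Many growth genes were low in that wild-type library. It was the lowest of its group for 59.4% of the 737 genes called lower, against 36.5% of all tested genes. Replicate 1 of the wild type held the most organelle reads, with 0.446% of its reads from mitochondrial genes, where the other libraries had 0.0477% to 0.131%. No organelle gene was called. The first principal component of the 9 white-light libraries (37.4% of the variance) put the mutant libraries at 25.6 to 54.9 and all others at -30.2 to -0.777. The second (22.1%) set replicate 2 of all 3 genotypes apart, at -36.5 to -20 against 2.82 to 28.9 for the other libraries.

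**Figure D1:**
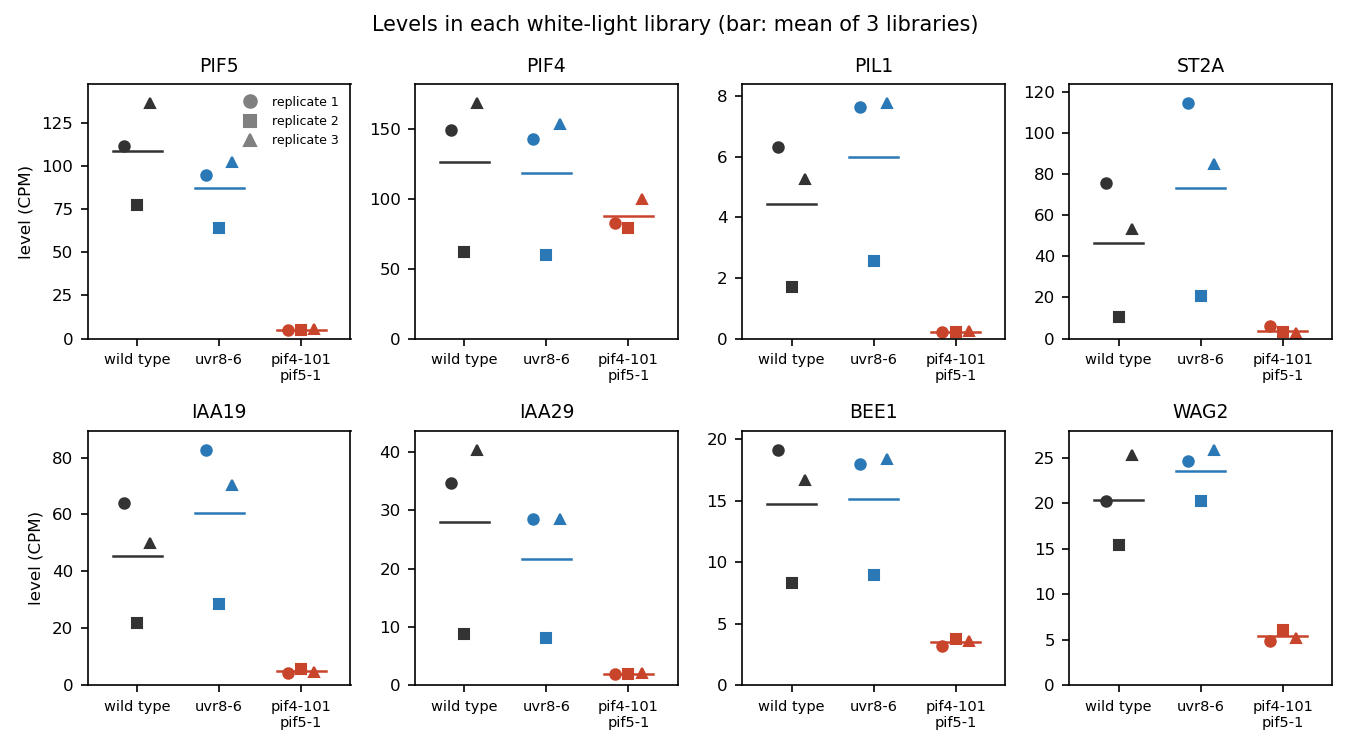
Level in CPM of PIF5, PIF4 and 6 genes called lower in pif4-101 pif5-1, in each white-light library of wild type, uvr8-6 and the double mutant. Symbols mark replicates and bars the mean of 3 libraries. PIF4 overlaps between wild type and mutant (62.1 to 168.3 and 79.4 to 100.0 CPM), the other 7 genes do not, and replicate 2 is the lowest library in wild type and in uvr8-6.

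More genes were called lower than higher. Of the 1095 calls 67.3% were lower, with a median log2 fold change of -0.83 among calls lower and 0.58 among calls higher, where the median over all tested genes was 0.0026. A change of at least 2-fold was called in 330 genes (1.58%), 283 of them lower (1.36%) and 47 higher (0.226%). The libraries of both groups did not overlap for 21.0% of all tested genes, for 730 of the 737 calls lower and for 357 of the 358 calls higher. An unadjusted p under 0.05 by edgeR was met by 4205 of the 20833 tested genes. The calls fell on all 5 nuclear chromosomes in like shares, 5.06% to 5.85% of the genes tested on each. With library totals in place of TMM scaling 866 genes were called lower and 214 higher, so the share of calls higher went from 32.7% to 19.8%.

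The number of calls depended on single libraries. It was 335 without replicate 1 of the wild type, 1092 without replicate 2 and 492 without replicate 3. Without mutant replicates 1, 2 and 3 it was 391, 1473 and 418. Leaving out replicate 2 of the wild type kept 798 of the 1095 calls. Of the 97 called genes that were chosen by rule to be named, 36 were called with each of the 6 libraries left out in turn, and all 97 kept their direction. In whole seedlings fewer cells of a type and less RNA per cell cannot be told apart, which holds for every gene below.

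**Figure D2:**
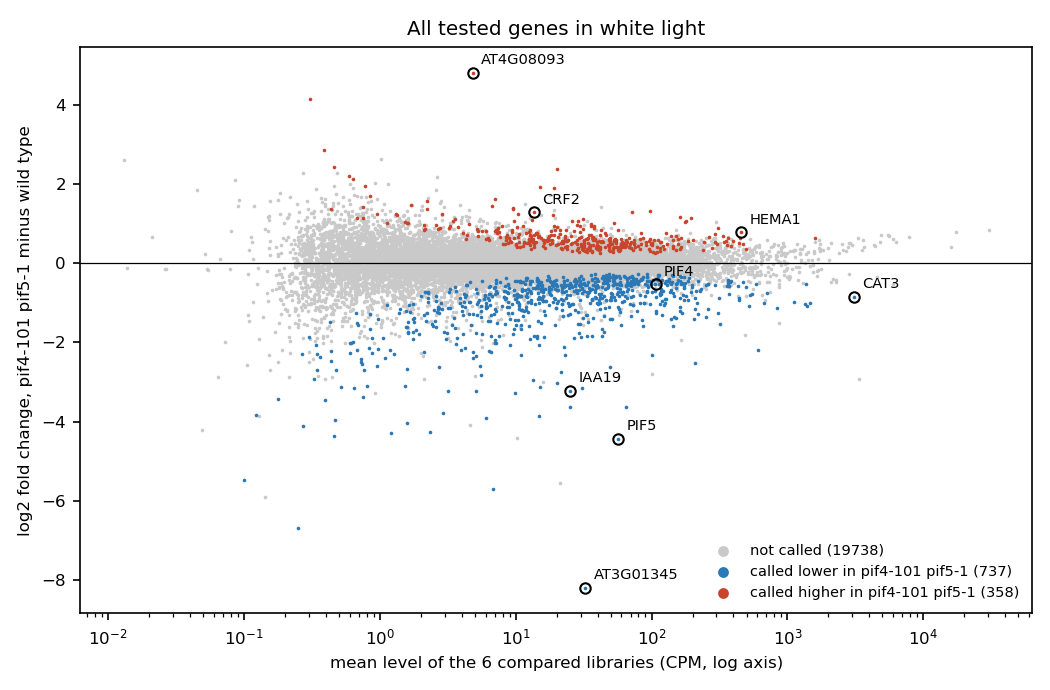
Log2 fold change of every tested gene against its mean level in the 6 compared libraries (CPM, log axis). The 737 genes called lower in pif4-101 pif5-1 (blue) reach -8.19 (AT3G01345), and the 358 called higher (red) reach 4.81 (AT4G08093).

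Promoters were searched for the G-box CACGTG and for the PBE-box, CACATG or CATGTG, which PIF proteins are known to bind. The search covered both strands of the 250 bases before the RefSeq gene start. A PBE-box stood in 19.4% of the 283 promoters of genes called lower at least 2-fold, in 14.9% of the 47 of genes called higher at least 2-fold and in 11.2% of all 20731 promoters of tested genes. A G-box stood in 8.48%, 6.38% and 7.35% of them. Over calls of any size a PBE-box stood in 16.8% of promoters of genes called lower and 11.2% of those called higher, and a G-box in 6.24% and 9.24%. These shares are descriptions, and letters in a promoter are not a binding site. Either motif stood in 25.8% of the 283 promoters and in 17.5% of all. Single promoters are shown with the genes below, from the TAIR10.1 nuclear chromosomes of RefSeq, with the motif in capitals. They were picked because they hold a motif. Named genes that were not called, such as FLC and LHCB4.1, hold a G-box as well.

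The gene lists below were chosen with earlier results of these data known. Their counts and medians are descriptions and no independent support for a role of PIF4 and PIF5. Each count is to be read beside the shares over all tested genes, 3.54% called lower and 1.72% called higher. Among the 7 PIF family genes PIF5 and PIF8 fell. PIF8, listed by RefSeq as UNE10 (AT4G00050), went from 41.8, 52.9 and 44.0 CPM in wild type to 29.5, 31.9 and 31.4 CPM in the mutant, with no overlap (-0.58 ± 0.11, adjusted p = 0.00927). PIF1, PIF3, PIF6 and PIF7 were not called, with log2 fold changes from -0.25 to 0.48. Of 10 other PIF targets and cofactors 5 fell, and all 10 had a negative fold change, with a median of -1.14. The count of calls was 2 without mutant replicate 3, 3 without wild-type replicate 1 or 3 and 7 without wild-type replicate 2. PIL1 (AT2G46970), a bHLH gene used as a marker of shade, stood at 6.31, 1.72 and 5.28 CPM in wild type and at 0.222, 0.225 and 0.237 CPM in the mutant. Every mutant library was thus far under the lowest wild-type one (-4.25 ± 0.58, adjusted p = 0.00137). ST2A (AT5G07010), a sulfotransferase that acts on hydroxyjasmonate, stood at 75.5, 10.5 and 53.4 CPM against 5.85, 3.04 and 2.47 CPM (-3.64 ± 0.69, adjusted p = 0.00951). Here replicate 2 of the wild type came within 2-fold of the highest mutant library. HFR1 (AT1G02340), a bHLH protein that binds PIFs and limits their action, fell by 1.51 and CKX5 (AT1G75450), a cytokinin oxidase, by 1.83 on the log2 scale. PIL1 was called with each library left out, ST2A was lost without mutant replicate 3 (adjusted p = 0.052), and HFR1 and CKX5 were lost without wild-type replicate 1 or 3 or mutant replicate 3 (adjusted p up to 0.13), CKX5 also without mutant replicate 2 and HFR1 also without mutant replicate 1.

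The class II homeodomain-leucine zipper genes, several of which are known as shade-induced, had negative fold changes in 9 of 9 tested cases, with a median of -0.78. HAT2 (AT5G47370) alone was called, with 68.7, 30.5 and 60.2 CPM in wild type and 22.5, 20.7 and 18.3 CPM in the mutant (-1.37 ± 0.31, adjusted p = 0.0217). That call was lost without wild-type replicate 1 or 3 or mutant replicate 1 or 3 (adjusted p up to 0.099). Without wild-type replicate 2 the list had 3 calls. With all libraries 3.54% of all tested genes were called lower. Among 12 growth-promoting bHLH genes and their partners 5 fell (median -0.72), and 2 were called without wild-type replicate 1 or 3 or mutant replicate 1 or 3. BEE1 (AT1G18400), a brassinosteroid-induced growth factor, stood at 19.1, 8.34 and 16.7 CPM in wild type against 3.15, 3.75 and 3.56 CPM. The mutant libraries lay close together and below all others (-2.08 ± 0.31, adjusted p = 0.00254). IBH1 (AT2G43060), which antagonises these growth factors, fell as well, from 26.7, 18.2 and 22.1 CPM to 8.16, 11.4 and 9.49 CPM (-1.201 ± 0.18, adjusted p = 0.00203). PRE1 (AT5G39860), a small bHLH that releases this brake, fell by 1.65 on the log2 scale, a call lost without wild-type replicate 1 or 3 or mutant replicate 1 or 3 (adjusted p up to 0.061). The BEE1 promoter holds a G-box that begins 136 bases before the start, shown with 25 bases on each side (chr1:6331237-6331292, plus strand).
BEE1: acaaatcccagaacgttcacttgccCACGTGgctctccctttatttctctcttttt

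Many auxin-response genes fell, where 3.54% of all tested genes were called lower. Of 27 tested Aux/IAA genes, which encode short-lived repressors that auxin induces, 11 fell and 0 rose by edgeR, with a median log2 fold change of -0.72 (16 members at an unadjusted p under 0.05). IAA6 (AT1G52830) stood at 15.02, 4.51 and 14.7 CPM in wild type and at 0.355, 0.863 and 1.02 CPM in the mutant (-3.90 ± 0.67, adjusted p = 0.00612). IAA29 (AT4G32280) stood at 34.6, 8.73 and 40.4 CPM against 1.91, 1.84 and 2.00 CPM (-3.87 ± 0.60, adjusted p = 0.00301). IAA19 (AT3G15540) stood at 64.1, 21.8 and 49.9 CPM against 4.34, 5.52 and 4.71 CPM (-3.22 ± 0.44, adjusted p = 0.00141). In all 3 genes wild-type replicate 2 was the lowest wild-type library and still lay above every mutant library, and their calls held with each library left out. IAA5 fell by 2.70 on the log2 scale, lost without wild-type replicate 1 or 3 or mutant replicate 1 (adjusted p up to 0.063). The other 7 calls ran from -0.72 to -2.27, and 6 members had positive fold changes, none of them called. The count of calls in the list was 5 to 12 with 1 library left out, lowest without wild-type replicate 1.

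The promoters of IAA6 and IAA19, both among the largest decreases, are alike in part and are shown for that reason. A PBE-box begins 172 bases before the start of IAA6 (chr1:19673794-19673849, minus strand) and 177 bases before that of IAA19 (chr3:5263799-5263854, plus strand), and the windows around them match in 48 of 56 bases. Nearer the start IAA6 has a second PBE-box at 73 bases (chr1:19673695-19673750) and IAA19 a G-box at 70 bases (chr3:5263906-5263961), in windows that match in 31 of 56 bases.
IAA6 at 172: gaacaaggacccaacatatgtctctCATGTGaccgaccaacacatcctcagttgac
IAA19 at 177: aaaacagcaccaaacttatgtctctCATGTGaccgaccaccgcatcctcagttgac
IAA6 at 73: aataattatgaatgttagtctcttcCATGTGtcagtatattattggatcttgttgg
IAA19 at 70: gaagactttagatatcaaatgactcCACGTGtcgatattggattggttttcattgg

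The SAUR genes encode small proteins that promote cell expansion, and 20 of 28 tested members fell while 0 rose (median -1.64, 25 at an unadjusted p under 0.05). Over all tested genes 3.54% were called lower. SAUR22 (AT5G18050) stood at 12.6, 4.95 and 10.4 CPM in wild type and at 0.266, 1.58 and 1.05 CPM in the mutant, with no overlap (-3.23 ± 0.58, adjusted p = 0.00709). SAUR10 (AT2G18010) had -3.37 ± 0.65 and SAUR11 (AT5G66260) -3.16 ± 0.46, and these 3 calls held with each library left out. Members in the SAUR19 to SAUR24 and SAUR61 to SAUR68 groups are near-identical copies. The authors' counting could have left out or split reads that match several of them. Single values, that of SAUR22 among them, are therefore uncertain, and such copies may not count as separate members. SAUR25 (AT4G13790) had 0 reads in all mutant libraries, where 3 reads would be 0.10 to 0.13 CPM, and only 0.157, 0.0490 and 0.391 CPM in wild type, so no fold is given. The count of calls in the list was 9 without wild-type replicate 1 and 21 without wild-type replicate 2, when 1 member was also called higher. Among 9 GH3 enzymes, several of which conjugate auxin to amino acids, WES1 (AT4G27260) fell from 94.6, 58.6 and 91.9 CPM to 36.8, 32.3 and 35.1 CPM (-1.23 ± 0.21, adjusted p = 0.00594). GH3.3 fell by 1.43 on the log2 scale and GH3.9 rose by 0.85, both lost without at least 1 library, including wild-type replicates 1, 2 and 3 and mutant replicate 3 (adjusted p up to 0.15).

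Of 11 genes of auxin synthesis 0 were called lower by edgeR and 2 higher, with 6 at an unadjusted p under 0.05. Over all tested genes 3.54% were called lower and 1.72% higher. YUC8 (AT4G28720), a flavin monooxygenase that makes auxin and a known PIF target, was at 42.4, 11.4 and 41.1 CPM in wild type and at 12.9, 15.3 and 9.76 CPM in the mutant. Replicate 2 of the wild type lay within the mutant range, and the difference was not called (-1.33 ± 0.45, adjusted p = 0.11). Without that library 2 members of the list were called lower, YUC8 among them. YUC8 was singled out after its values were seen. The 2 calls higher were YUC1 and TAR2, which makes an auxin precursor, with YUC1 at no more than 1.29 CPM in the 6 libraries. Both calls were lost without wild-type replicate 1 or 3 or mutant replicate 1, YUC1 also without wild-type replicate 2 and TAR2 also without mutant replicate 3 (adjusted p up to 0.14), and YUC1 was not called against uvr8-6 (adjusted p = 0.16). Of 18 auxin transport genes 7 fell (median -0.49). WAG2 (AT3G14370) and WAG1 (AT1G53700) encode kinases that act on auxin efflux carriers. WAG2 stood at 20.2, 15.4 and 25.3 CPM against 4.88, 6.04 and 5.18 CPM (-1.92 ± 0.23, adjusted p = 0.000635), and WAG1 at 9.44, 7.70 and 8.86 CPM against 3.50, 5.14 and 3.93 CPM (-1.05 ± 0.17, adjusted p = 0.00477). In both genes the groups stood clear of each other. PIN3 (AT1G70940), an efflux carrier of tropic growth, went from 296.6, 251.5 and 291.7 CPM to 176.3, 158.3 and 181.1 CPM (-0.70 ± 0.11, adjusted p = 0.00361). These 3 calls held with each library left out, and that of PIN7 (-0.87 ± 0.17) was lost without wild-type replicate 1 or mutant replicate 1 (adjusted p up to 0.055). Both WAG promoters hold a PBE-box, at 145 bases before the start in WAG2 (chr3:4799727-4799782, minus strand) and at 77 in WAG1 (chr1:20048332-20048387, plus strand), and the windows match in 27 of 56 bases.
WAG2: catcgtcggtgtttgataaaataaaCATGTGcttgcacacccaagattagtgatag
WAG1: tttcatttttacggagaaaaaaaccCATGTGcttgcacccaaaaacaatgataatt

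**Figure D3:**
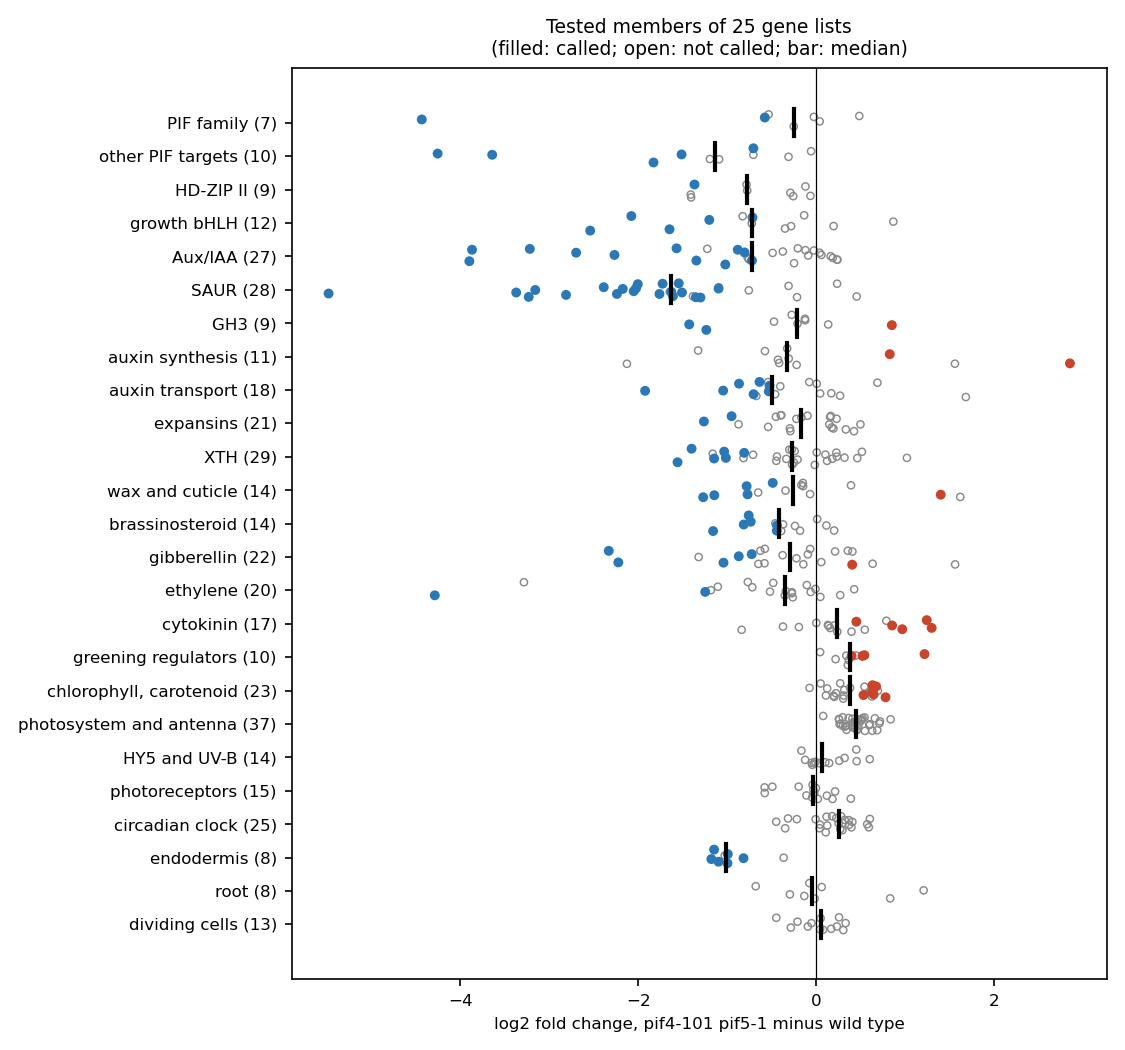
Log2 fold change of each tested member of 25 gene lists, with the number tested in brackets, filled where called and open where not, and a bar at the list's median. SAUR, Aux/IAA and Casparian strip genes (drawn as endodermis) lie mainly below 0 (medians -1.64, -0.72 and -1.01), and greening regulators, chlorophyll and photosystem genes above it (0.38, 0.38 and 0.45).

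Genes of the cell wall and cuticle fell in part, where 3.54% of all tested genes were called lower. Of 29 xyloglucan endotransglucosylases, which cut and rejoin wall xyloglucan, 6 fell and 0 rose (median -0.27, 12 at an unadjusted p under 0.05). XTH8 (AT1G11545) went from 102.3, 80.2 and 97.6 CPM to 44.3, 44.2 and 48.3 CPM (-1.03 ± 0.14, adjusted p = 0.0014), and its call held with each library left out. XTH4 (AT2G06850), one of the most abundant genes called, went from 2048.7, 2139.8 and 1657.9 CPM to 583.1, 1318.1 and 991.4 CPM (-1.02 ± 0.24, adjusted p = 0.0268). Its mutant libraries were spread over more than 2-fold, and the call was lost without any 1 of 5 libraries, mutant replicate 2 being the exception (adjusted p up to 0.091). XTH15 and XTH17 fell by 1.56 and 1.40 on the log2 scale, lost without wild-type replicate 1 or 3 or mutant replicate 1 or 3 (adjusted p up to 0.12). Of 21 expansins, which loosen walls, EXPA8 (-1.26 ± 0.27) and EXLA2 (-0.95 ± 0.24) fell, lost without the same 4 libraries (adjusted p up to 0.15). A count of 2 in a list of 21 says little. The count of calls among the endotransglucosylases was 1 to 3 without any 1 library other than mutant replicate 2. In the wax and cuticle list 5 of 14 genes fell, and 1 or 2 were called lower without any 1 library other than mutant replicate 2. KCS1 (AT1G01120), a fatty acid elongase, went from 310.5, 280.6 and 275.9 CPM to 87.3, 163.1 and 141.5 CPM (-1.15 ± 0.20, adjusted p = 0.0066), and was called with each library left out. The other 4 calls lower, among them the lipid transfer protein gene LTP2, the fatty acid hydroxylase gene CYP86A2 and the wax gene CER2, were each lost without wild-type replicate 1 and without mutant replicate 3, and some without other libraries (adjusted p up to 0.12). PEL3, the acyltransferase DCR of cutin synthesis, rose (1.40 ± 0.27, adjusted p = 0.0105), and was lost without wild-type replicate 3 (adjusted p = 0.052).

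Genes of the Casparian strip, which forms in the endodermis of the root, were lower in the same libraries. Of 8 members 6 fell, where 3.54% of all tested genes did, and all 8 had negative fold changes (median -1.01). Their summed level was 493.3 to 712.2 CPM in the wild-type libraries and 208.0 to 337.0 CPM in the mutant. CASP2 (AT3G11550), a scaffold protein of the strip, went from 56.8, 68.3 and 47.6 CPM to 18.3, 29.5 and 29.9 CPM (-1.15 ± 0.18, adjusted p = 0.00279). ESB1 (AT2G28670), a dirigent protein of the strip, went from 218.0, 265.7 and 182.6 CPM to 79.5, 120.6 and 111.1 CPM (-1.10 ± 0.17, adjusted p = 0.00254). In both genes the groups did not overlap and wild-type replicate 2 was the highest library, unlike in the growth genes. Both calls held with each library left out. Of 8 other root markers 0 were called by edgeR, DESeq2 or limma-voom (2 at an unadjusted p under 0.05), and their summed level of 706.4 to 1134 CPM in wild type overlapped with 548.9 to 947.9 CPM in the mutant. Of 10 root hair genes 0 were called by edgeR and limma-voom and 1 by DESeq2 (2 at an unadjusted p under 0.05). Of all 20833 tested genes edgeR called 5.26% and DESeq2 1797, and 4205 had an unadjusted p under 0.05 by edgeR. Lists this short say little by a count of 0 or by the few at an unadjusted p under 0.05. The part of the makeup of the seedlings in these differences was not tested.

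Single steps of other hormone pathways fell as well, where 3.54% of all tested genes were called lower. In the brassinosteroid list 6 of 14 genes fell (median -0.42), with 3 calls without wild-type replicate 1 or 3 or mutant replicate 1 and 4 without mutant replicate 3. DWF4 (AT3G50660), a rate-limiting hydroxylase of the synthesis, went from 46.0, 39.1 and 44.0 CPM to 22.5, 28.9 and 24.8 CPM (-0.76 ± 0.10, adjusted p = 0.00085). BR6OX1 (AT5G38970), an oxidase that makes castasterone, went from 14.6, 11.7 and 17.5 CPM to 6.07, 6.12 and 7.46 CPM (-1.16 ± 0.19, adjusted p = 0.00374), and BR6OX2 had -0.81 ± 0.13. BAS1, which inactivates the hormone, fell by 0.74 on the log2 scale. The first 3 calls held with each library left out, and BAS1 was lost without wild-type replicate 1 or 3 or mutant replicate 1 or 3 (adjusted p up to 0.074).

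In the gibberellin list 5 of 22 genes fell and 1 rose, with 3 called lower without wild-type replicate 1 or 3 or mutant replicate 1 or 3. The shares over all tested genes were 3.54% lower and 1.72% higher. GA20OX1 (AT4G25420), an oxidase late in the synthesis, went from 10.1, 4.51 and 10.9 CPM to 1.24, 1.88 and 1.93 CPM (-2.33 ± 0.38, adjusted p = 0.00454). RGL1 (AT1G66350), a DELLA repressor of the response, went from 24.2, 16.7 and 15.4 CPM to 7.76, 10.4 and 9.05 CPM (-1.04 ± 0.18, adjusted p = 0.0066). GA3 (AT5G25900), the ent-kaurene oxidase of an early step, was higher in all mutant libraries, 40.7, 37.2 and 41.5 CPM against 29.9, 28.7 and 31.6 CPM (0.40 ± 0.08, adjusted p = 0.00879). All 3 calls held with each library left out, but that of GA3 was lost with library totals in place of TMM scaling. In the ethylene list ACS4 and ACS11, which make the precursor of ethylene, were called lower among 20 genes, at no more than 3.86 and 4.54 CPM in any wild-type library. Both were lost without any 1 of 5 libraries, all but wild-type replicate 2 (adjusted p up to 0.17), and without that library 7 members of the list were called lower. With 2 of 20 members called, the ethylene list says little by its count.

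Of 17 genes of cytokinin response, breakdown and activation 5 were called higher and 0 lower by edgeR (median 0.24, 8 at an unadjusted p under 0.05), all 5 of them response genes. The share over all tested genes was 1.72% called higher. CKX5, called lower, was counted with the PIF targets above and not in this list. The list had 2 calls higher without wild-type replicate 1 or 3, 3 with library totals, and 4 higher and 1 lower without wild-type replicate 2. Against uvr8-6 it had 2 higher and 1 lower (median 0.084). CRF2 (AT4G23750), a cytokinin response factor, stood at 8.40, 7.55 and 7.72 CPM in wild type and at 24.8, 16.02 and 17.4 CPM in the mutant (1.297 ± 0.19, adjusted p = 0.00189). ARR7 (AT1G19050), a response regulator that cytokinin induces, stood at 19.7, 16.8 and 20.8 CPM against 31.4, 45.1 and 35.5 CPM (0.97 ± 0.17, adjusted p = 0.00643). The groups were apart in both genes and their calls held with each library left out. ARR15 and ARR6 (1.24 ± 0.29 and 0.85 ± 0.23) were lost without at least 3 single libraries each, wild-type replicates 1 and 3 in both cases (adjusted p up to 0.13). Against uvr8-6 neither was called (adjusted p = 0.0895 and 0.14), while CKX5, which degrades cytokinin, was lower in the mutant there as well (-1.80, adjusted p = 0.0193).

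Some genes of chloroplast build-up rose without PIF4 and PIF5, where 1.72% of all tested genes were called higher. Of 10 greening regulators 4 rose and 0 fell by edgeR (median 0.38, 7 at an unadjusted p under 0.05), with 1 or 2 calls without any 1 library other than mutant replicate 2. CGA1 (AT4G26150), a GATA factor that promotes chloroplast development, stood at 8.29, 14.1 and 11.5 CPM in wild type and at 31.9, 22.6 and 24.5 CPM in the mutant (1.22 ± 0.22, adjusted p = 0.00776). GLK1, listed by RefSeq as GPRI1 (AT2G20570), an activator of photosynthesis genes, stood at 41.0, 40.7 and 38.4 CPM against 66.4, 48.2 and 60.0 CPM (0.54 ± 0.13, adjusted p = 0.031). The groups did not overlap in either gene. The call of CGA1 held with each library left out and that of GLK1 did not (adjusted p up to 0.13), being lost without wild-type replicate 1 or 3 or mutant replicate 1 or 3. The sigma factors SIGF and SIGA of plastid transcription rose by 0.52 and 0.40 on the log2 scale, and both calls were lost with library totals and without wild-type replicate 1 or 2 or mutant replicate 1 or 3, SIGF also without wild-type replicate 3 (adjusted p up to 0.18).

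Of 23 genes of chlorophyll and carotenoid synthesis 6 rose and 0 fell (median 0.38, 15 at an unadjusted p under 0.05). Over all tested genes 1.72% were called higher. HEMA1 (AT1G58290), the glutamyl-tRNA reductase that starts the pathway, stood at 372.9, 303.2 and 332.4 CPM in wild type and at 608.2, 524.5 and 597.6 CPM in the mutant (0.78 ± 0.16, adjusted p = 0.0131). CHLD, listed by RefSeq as ALB1 (AT1G08520), a magnesium chelatase subunit, stood at 181.2, 221.3 and 209.9 CPM against 367.8, 274.2 and 334.0 CPM (0.67 ± 0.13, adjusted p = 0.012). CRD1 (AT3G56940), the cyclase of the next steps, stood at 1313.5, 1185.9 and 1236.2 CPM against 2023.4, 1751.7 and 2064.6 CPM (0.64 ± 0.18, adjusted p = 0.0494). All mutant libraries lay above all wild-type ones in the 3 genes, with steps of less than 2-fold. Their calls did not hold with each library left out: HEMA1 was lost without mutant replicate 1 or 3, CHLD without wild-type or mutant replicate 1, and CRD1 without any 1 of 5 libraries, all but mutant replicate 2 (adjusted p up to 0.051, 0.064 and 0.15). The count of calls in the list was 1 without wild-type replicate 1 or mutant replicate 1 or 3, 2 without wild-type replicate 3, 4 without wild-type replicate 2 and 8 without mutant replicate 2. The CRD1 promoter holds a G-box that begins 52 bases before the start (chr3:21076428-21076483, plus strand).
CRD1: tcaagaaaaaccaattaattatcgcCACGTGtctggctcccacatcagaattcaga

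All 37 photosystem, antenna and Rubisco genes had positive fold changes (median 0.45), also under each of the 3 other scalings and without wild-type replicate 2. Of these 0 were called by edgeR or limma-voom and 9 were called higher by DESeq2, with 17 at an unadjusted p under 0.05. Over all 20833 tested genes DESeq2 called 724 higher, and 4205 had an unadjusted p under 0.05 by edgeR. In 23 of them the mutant libraries lay above all wild-type ones, where this held for 9.99% of all tested genes. LHCB4.1 (AT5G01530), an antenna protein of photosystem II, stood at 2896.9, 2132.5 and 2713.3 CPM in wild type and at 4463.5, 3433.8 and 4075.3 CPM in the mutant (0.63 ± 0.21, adjusted p = 0.0969). Summed over the list the level was 90270 to 121900 CPM in wild type and 138800 to 171200 CPM in the mutant, so that these genes held a larger share of all reads in each mutant library. Against uvr8-6, a comparison that shares the mutant libraries, 19 of the 37 were called higher (median 0.67), where 5.15% of all tested genes were. CP29 (AT3G53460), a chloroplast RNA-binding protein, rose by 0.88 and CAO (AT2G47450), a chloroplast signal recognition particle component that RefSeq lists under this symbol, by 0.68 on the log2 scale, both lost without wild-type replicate 3 and mutant replicates 1 and 3, CP29 also without wild-type replicate 1 and CAO also without wild-type replicate 2 (adjusted p up to 0.15).

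**Figure D4:**
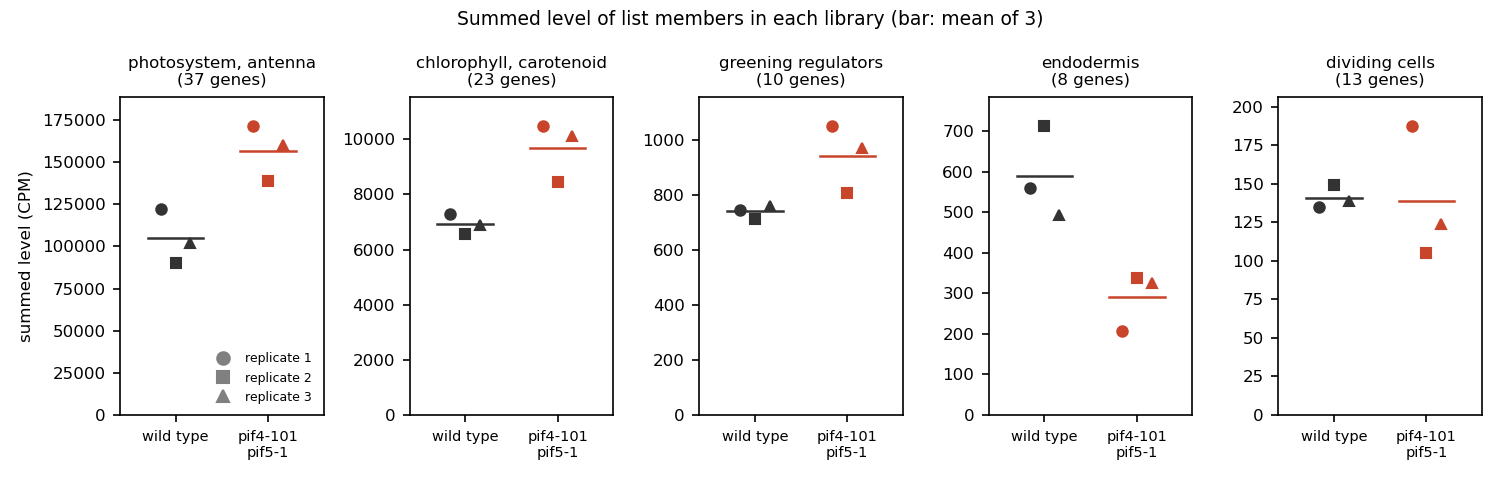
Summed level (CPM) of the tested members of 5 lists in each wild-type and pif4-101 pif5-1 library, with symbols for replicates and bars for the mean of 3. The first 3 lists are higher in every mutant library, the endodermis list is lower (208.0 to 337.0 against 493.3 to 712.2 CPM), and the dividing cell list overlaps (105.1 to 187.3 against 135.1 to 149.0 CPM).

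Outside these lists the rule on size named other genes. AT5G37950, a UDP-glycosyltransferase family gene, stood at 7.30, 3.53 and 5.44 CPM in wild type and at 0.222, 0.450 and 0.474 CPM in the mutant (-3.78 ± 0.42, adjusted p = 0.000425). ENODL1 (AT5G53870), an early nodulin-like protein, stood at 22.2, 12.4 and 19.2 CPM against 0.931, 2.25 and 2.27 CPM (-3.27 ± 0.41, adjusted p = 0.000795). AT5G44440, of the berberine bridge enzyme-like family, had -3.62 ± 0.70 and AT3G02670, a glycine-rich protein, -3.22 ± 0.31. In these 4 genes the groups did not overlap and the calls held with each library left out. The call of AT5G44440 held only narrowly. Its adjusted p was 0.048 without wild-type replicate 1, 0.047 without mutant replicate 1 and 0.05 after rounding without mutant replicate 3. AT5G44440 stood at 206.6, 19.2 and 133.7 CPM in wild type and at 7.95 to 11.3 CPM in the mutant. Replicate 2 of the wild type thus lay near the mutant range. FAR1 (AT5G22500), a fatty acid reductase, went from 77.3, 9.61 and 80.0 CPM to 6.96, 6.00 and 5.93 CPM (-3.15 ± 0.68), and was lost without wild-type replicate 1 or 3 or mutant replicate 1 or 3 (adjusted p up to 0.075).

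Among abundant genes CAT3 (AT1G20620), a catalase, went from 4516.8, 3655.0 and 3758.9 CPM to 1828.9, 2713.0 and 2090.5 CPM (-0.85 ± 0.17, adjusted p = 0.0136). PRP4, a proline-rich wall protein, and NSP1, a nitrile specifier protein of glucosinolate breakdown, fell by 1.04 and 0.97 on the log2 scale. In each of these genes mutant replicate 1 was the lowest library of all 6. The 3 calls were lost without wild-type replicate 1 or mutant replicate 1 or 3, PRP4 and NSP1 also without wild-type replicate 2 and NSP1 also without wild-type replicate 3 (adjusted p up to 0.15).

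Among genes called higher, AT4G34950, a major facilitator transporter, stood at 7.04, 7.11 and 4.79 CPM in wild type and at 27.3, 21.6 and 22.2 CPM in the mutant (1.92 ± 0.36, adjusted p = 0.0092). BCB (AT5G20230), a blue copper-binding protein, stood at 7.56, 5.69 and 10.7 CPM against 17.95, 47.8 and 24.9 CPM (1.91 ± 0.35, adjusted p = 0.00801). Both held with each library left out. BGLU21 (AT1G66270), a beta-glucosidase, rested on mutant replicate 1, with 169.5 CPM there and 61.2 and 74.7 CPM in the others against 36.4 to 48.9 CPM in wild type. Its log2 fold change of 1.28 fell to 0.70 without that library (adjusted p = 0.19), and the call was also lost without mutant replicate 3 and without each wild-type library. TGG2, a myrosinase, was at the edge of the threshold (1.33 ± 0.37, adjusted p = 0.05 after rounding) and was lost without any 1 of the 6 libraries (adjusted p up to 0.17).

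For 3 of the largest changes the wild-type level itself varied or the second reference gave another value. AT3G01345, an uncharacterized gene with the largest decrease, stood at 99.2, 0.638 and 94.0 CPM in wild type, at 0.310, 0.263 and 0.102 CPM in pif4-101 pif5-1 and at 0.552, 0.644 and 0.500 CPM in uvr8-6. It was high in 2 wild-type libraries alone among the white-light libraries, and against uvr8-6 it was not called (adjusted p = 0.81). Its call against wild type (-8.19 ± 1.76, adjusted p = 0.017) was lost without wild-type replicate 1 or mutant replicate 1 or 3 (adjusted p up to 0.08). AT5G35935 stood at 8.24, 1.23 and 9.71 CPM in wild type and at 35.2, 32.5 and 32.8 CPM in the mutant (2.37 ± 0.50, adjusted p = 0.0156), but uvr8-6 had 27.6, 28.9 and 36.7 CPM and did not differ by the test (adjusted p = 0.91). Its call was lost without wild-type replicate 1 (adjusted p = 0.053). AT4G08093, by contrast, stood at 8.91, 9.19 and 10.03 CPM in the double mutant alone, at 0.365, 0 and 0.554 CPM in wild type and at 0.0425, 0.0358 and 0.0769 CPM in uvr8-6. It was called against wild type (4.81 ± 0.47, adjusted p = 0.000201) and against uvr8-6 (adjusted p = 1.26e-05), where no fold is given because the uvr8-6 libraries lay below the 0.11 to 0.13 CPM of 3 reads.

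Against uvr8-6 as the reference 2406 genes were called (11.5%), 1073 higher (5.15%) and 1333 lower (6.4%), with the same mutant libraries. Of the 1095 genes called against wild type, 1011 passed there with the same sign, 0 with the other sign, and 84 did not pass. The uvr8-6 and wild-type white-light libraries differed in 3 genes (0.0144%). IAA19 gave -3.63 against uvr8-6 and -3.22 against wild type, BEE1 -2.11 and -2.08, HEMA1 0.94 and 0.78, and CASP2 -1.18 and -1.15. These pairs share the mutant libraries and are not independent.

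In some pathways near the PIF proteins edgeR made no call against wild type, where 5.26% of all tested genes were called. In lists of 14 to 25 genes a count of 0 says little at that share. DESeq2 called 1797 of the 20833 tested genes, and 4205 had an unadjusted p under 0.05 by edgeR. In the circadian clock list 0 of 25 genes were called by edgeR or limma-voom and 2 by DESeq2 (7 at an unadjusted p under 0.05, median 0.25). Against uvr8-6 edgeR called 6 of the 25 higher and 2 lower (median 0.27), where 5.15% and 6.4% of all tested genes were called. LUX, listed by RefSeq as PCL1 (AT3G46640), of the evening complex, stood at 32.5, 31.6 and 29.9 CPM against 39.6, 43.8 and 37.8 CPM (0.37 ± 0.11, adjusted p = 0.0695). Among 15 photoreceptor and signalling genes 0 were called by edgeR or limma-voom and 3 by DESeq2, with 5 at an unadjusted p under 0.05. PHYA (AT1G09570) stood at 542.1, 350.1 and 520.8 CPM against 344.3, 340.7 and 319.2 CPM (adjusted p = 0.0692) and was called without wild-type replicate 2. Without that library 3 members of the list were called lower, while 3 were called higher against uvr8-6. In the list of HY5 and UV-B response genes 0 of 14 were called by edgeR, DESeq2 or limma-voom, with 1 at an unadjusted p under 0.05 and a median of 0.068. Without wild-type replicate 2, and also against uvr8-6, 2 members were called higher.

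Other response pathways had 0 to 2 calls each, where 5.26% of all tested genes were called. In lists of 12 to 27 genes so few calls say little about the pathway. The counts over all 20833 tested genes were 1797 called by DESeq2 and 4205 at an unadjusted p under 0.05 by edgeR. Of 16 flavonoid genes TT5, the chalcone isomerase, fell (-0.70 ± 0.15). In the cold list GolS3, a galactinol synthase, and COR47, a dehydrin, fell by 1.92 and 0.75 on the log2 scale among 13 genes, and in the copper and iron list YSL2, a metal chelate transporter, fell by 0.69 among 27. These 4 calls were lost without wild-type replicate 1 and mutant replicate 1, and some without wild-type replicate 2 or mutant replicate 3 (adjusted p up to 0.099). Calls by edgeR were 0 of 17 B-box genes, 0 of 20 jasmonate and glucosinolate genes, 0 of 12 salicylic acid genes and 0 of 13 flowering genes, with 3, 5, 0 and 2 members at an unadjusted p under 0.05. DESeq2 called 1, 2, 0 and 0 of them and limma-voom 0 in each.

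Of 13 genes of dividing cells 0 were called by edgeR or limma-voom and 1 by DESeq2, of 9 seed storage and late embryogenesis genes 0 by all 3 tools, and of 9 stomatal and trichome genes 0 by all 3 tools, each list with 2 members at an unadjusted p under 0.05. Of all 20833 tested genes edgeR called 5.26% and DESeq2 1797, and 4205 had an unadjusted p under 0.05 by edgeR. Seed genes summed to 8.98 to 15.8 CPM in wild type and to 9.04 to 26.4 CPM in the mutant. In the list of the shoot apex KNAT1 (AT4G08150), a homeobox gene also active in the stem, fell from 68.1, 92.7 and 70.4 CPM to 34.3, 56.1 and 48.2 CPM among 5 tested genes (-0.74 ± 0.17, adjusted p = 0.0261). That call was lost without any 1 of 5 libraries, all but mutant replicate 2 (adjusted p up to 0.099). Lists as short as these say little by their counts.

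**Figure D5:**
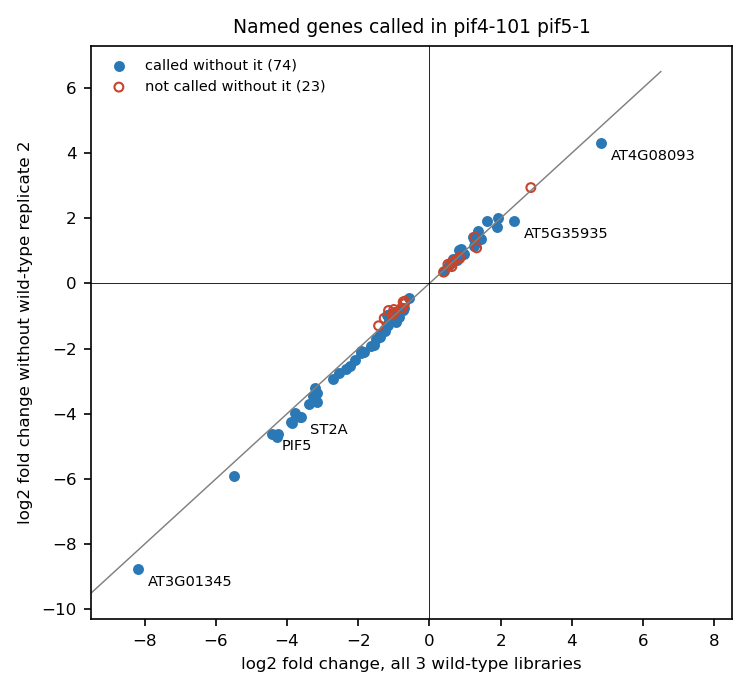
Log2 fold change of the 97 named genes called in pif4-101 pif5-1, with all wild-type libraries (x axis) and without wild-type replicate 2 (y axis), and the line of equal values. All keep their direction, 74 are called without it (filled) and 23 are not (open).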

How the data were processed

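The authors deposited raw read counts per gene for 15 libraries of 19.3 to 30.4 M reads, neither scaled nor pooled. Per the labels' protocols they came from 400 ng of RNA by a stranded mRNA kit, as 100 bp single-end reads. Tools listed in the submitters' processing notes, without roles, are HTSeq 0.9.1, STAR 2.5.3a, edgeR 3.22.3 and FastQC 0.11.5, with the TAIR10 build. How strand was treated in counting is not given in the sources used here, so antisense and overlapping genes are uncertain. A second deposited table of normalized values was not used.

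Of 33602 genes, edgeR's filterByExpr on the 5 groups of 3 kept 20833. Libraries were scaled by TMM (factors 0.863 to 1.11). All 15 libraries entered 1 model with 5 group means (10 residual degrees of freedom), and the contrast of pif4-101 pif5-1 minus wild type was tested by edgeR 4.0.16's quasi-likelihood F test, two-sided, with Benjamini-Hochberg adjustment over all tested genes. Calls are genes with an adjusted p below 0.05. SE is that of the log2 fold change, and levels between genes are not per length and are not compared. The limit given for a count of 0 is 3 reads and holds for counting error only. Replicates in each group differed beyond sampling noise.

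Genes were named by rule: PIF4 and PIF5, the 12 largest changes per direction with at least 5 CPM and no overlap, the 6 most abundant calls per direction changed at least 1.5-fold, at most 4 called members per direction in each of 36 lists (617 genes), and the 2 members of lowest p in lists with no call. FRO5 and YUC8 were chosen after their values were seen. The lists and members were chosen with earlier results of these data known. Gene names and promoters came from RefSeq TAIR10.1, in which 32835 genes matched. Alternatives were other scalings, filters, tools (DESeq2 1.42.0, limma-voom 3.58.1), samples in the fit, a replicate block, uvr8-6 as reference and each library left out. Leaving out organelle genes was added after seeing the data.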

Additional observations from a re-analysis of the deposited data

How the results depend on the processing

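PIF5 stayed called and PIF4 not called under all 20 alternatives, and no named gene changed direction where it was tested. The stricter low-count filter kept 109 of the 124 named genes. These genes were chosen from the same data and the alternatives reuse these libraries in whole or part, so a kept direction was likely beforehand. Against 1095 calls (358 higher, 737 lower, 330 at least 2-fold), DESeq2 gave 1797 (724 higher), the 9 white-light libraries alone 710 (236 higher, 474 lower), and the 6 compared libraries alone 268 (54 higher, 214 lower, 162 at least 2-fold), where fewer samples estimate the spread. Library totals gave 214 higher. With uvr8-6 as reference 2406 were called (1073 higher, 1333 lower, 554 at least 2-fold), and with the mean of wild type and uvr8-6 2810 (1316, 1494 and 518). With 1 library left out the counts ran from 335 to 1473 in all, 80 to 620 higher, 255 to 853 lower and 150 to 411 at least 2-fold. The cause of these shifts was not tested. Other scalings, both other filters, limma-voom and the removal of organelle genes stayed within 1.5 times.

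Same-numbered wild-type and mutant libraries deviated from their group means with correlations of 0.0756, 0.185 and 0.171, so the numbers were not taken as pairs, although each wild-type library correlated best with its own number. These correlations leave out uvr8-6, and the second principal component set replicate 2 of every white-light genotype apart. What same-numbered libraries share was not tested. With the replicate block 261 genes were called in the 6 libraries (48 higher, 213 lower, 166 at least 2-fold), against 268 without it. In the 9 white-light libraries 1409 were called with the block (526 higher, 883 lower, 371 at least 2-fold), against 710 without it. Of the 97 named calls 53 were lost under the first and 6 under the second, and 54 in the 6 libraries without a block.

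With 3 libraries per group, the smallest called change was 0.25 on the log2 scale. Genes under the 0.098 to 0.16 CPM of 3 reads are not resolved at this depth.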
